A study of Mus musculus with 6 samples.

Results

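The genes described here mark macrophages, the phagocytes that fill and remodel obese fat. They are the 34 gene symbols of a list of general, resident and monocyte-derived macrophage genes, chosen by symbol from the 55011 symbols of the count table. RNA was sequenced from whole visceral adipose tissue, the fat that surrounds the inner organs, taken from male C57BL/6 mice at 30 weeks of age. The mice had 14 weeks of low-fat and then 16 weeks of high-fat diet, and tissue was taken at zeitgeber time 0 h, when the lights go on. Every mouse carried Foxp3.Cre-YFP, a Cre recombinase joined to a yellow fluorescent protein and driven by the regulatory T cell gene Foxp3. The strains were bmal1WT, the wild type for the clock gene Arntl (BMAL1), and bmal1KO, the knockout, with 3 libraries each, here called Bmal1WT and Bmal1KO. Macrophages do not normally express Foxp3, so the comparison reads macrophage genes in tissue whose deletion is aimed at another cell type.

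Macrophages in fat come from 2 sources. Resident macrophages lie along vessels, scavenge debris and carry the mannose receptor and the receptors for hyaluronan and folate. Others arise from blood monocytes, which enter through the chemokine receptor CCR2, and both kinds need the growth factor receptor CSF1R and the transcription factor PU.1, the product of Spi1. Macrophages bind antibody through Fc gamma receptors, most of which signal through an adaptor with an immunoreceptor tyrosine-based activation motif (ITAM). Obesity is known to raise macrophage number in visceral fat.

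Libraries held 6514620 to 9529198 counts, with Bmal1KO replicate 1 the shallowest and with counts on the most genes (30019, against 19009 to 20145 in the other 5). Between replicates, Pearson correlations of log2 CPM, the counts scaled to library size, were 0.927 to 0.953 over the 13859 genes tested. Arntl itself was at 31.1, 28.4 and 40.1 CPM in Bmal1WT and 48.7, 32.7 and 39.0 CPM in Bmal1KO (values here and in what follows run from replicate 1 to replicate 3), and Foxp3 had at most 3 counts in any library, so whole tissue gave no check of the deletion. The labels number the samples without saying that each is a separate animal, and the p-values then cover only how these samples spread, which may be technical. Markers of the tissue were present, with summed adipocyte markers at 25776 to 30879 CPM in Bmal1WT and 14952 to 32850 CPM in Bmal1KO.

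All 34 macrophage genes were detected in every library, with 46 to 82288 counts, and all entered the test. Per length, in length-scaled units (TPM), the most abundant was Lyz2, the lysozyme of myeloid cells, with a median level of 12104 TPM over the 6 libraries. Ctss, a lysosomal protease that trims antigens for presentation, followed at 4716 TPM and the ITAM adaptor Tyrobp at 3453 TPM. Cd68, a glycoprotein of lysosomes, was at 2207 TPM and Adgre1, the F4/80 antigen, at 445 TPM. The lowest were the fractalkine receptor Cx3cr1 at 6.93 TPM, the haemoglobin scavenger receptor Cd163 at 8.69 TPM and the T cell costimulator Cd86 at 9.93 TPM. The defining markers Lyz2, Cd68, Adgre1 and Csf1r were thus present in all 6 libraries, as the macrophage label needs.

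**Figure D1:**
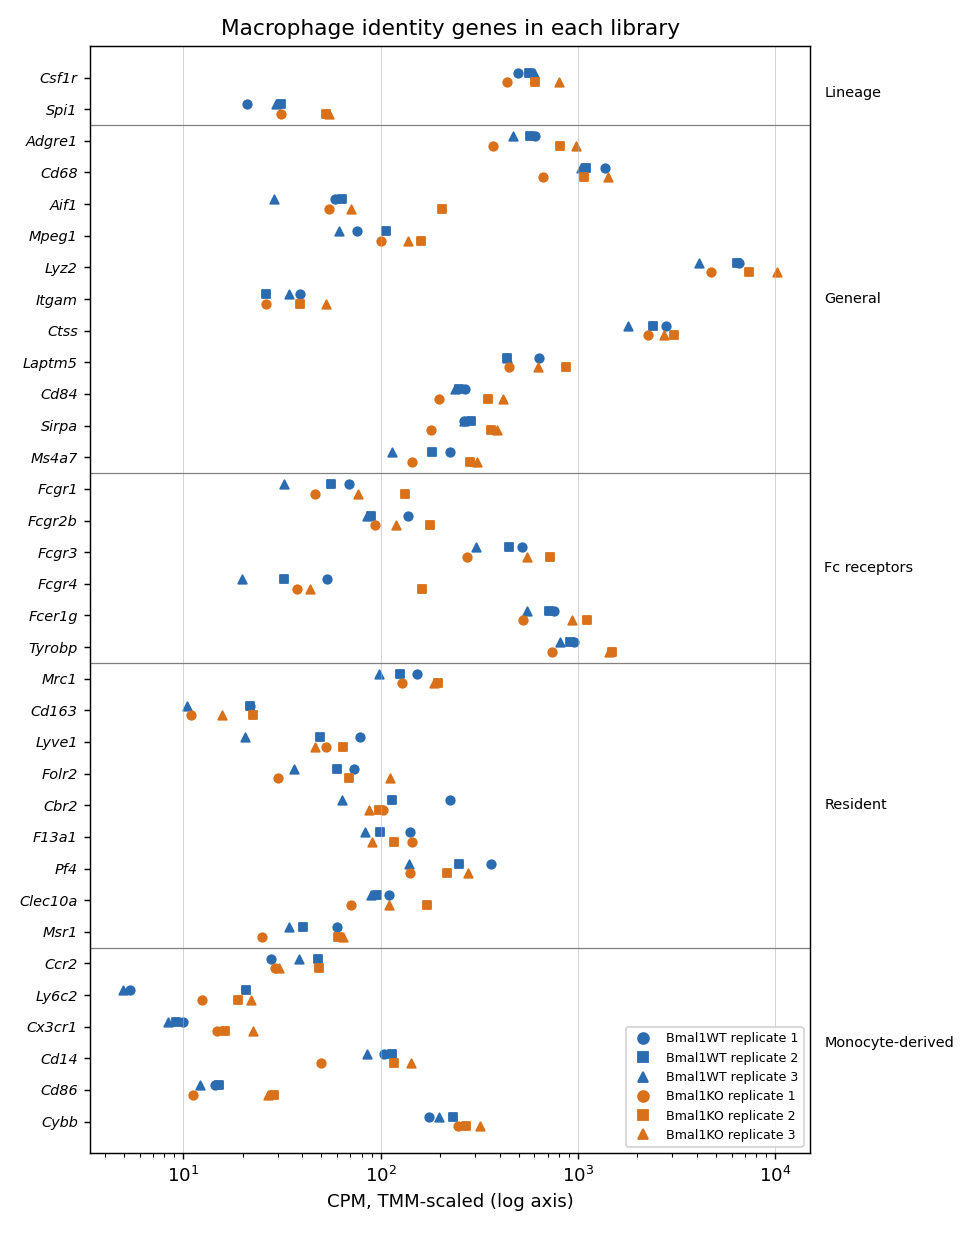
CPM of each of the 34 genes (rows, grouped by role) in each library, on a log axis; blue symbols are the 3 Bmal1WT and orange symbols the 3 Bmal1KO libraries, and each replicate has its own symbol. Cx3cr1, Spi1 and Cybb are the genes whose orange symbols all lie right of all blue ones, and the orange circle, Bmal1KO replicate 1, is often the leftmost symbol of its row.

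Most macrophage genes had a higher mean in Bmal1KO fat, but none by an amount that passed the test. Of the 34, 29 were higher and 5 lower (Cd68, Cd163, Cbr2, Pf4 and Ccr2), and the median log2 fold change (log2 FC, Bmal1KO over Bmal1WT) was 0.33, beside 52.0% higher and a median of 0.018 over all genes tested. None passed edgeR's quasi-likelihood test with adjustment over all genes, where 0% of the 13859 genes passed (smallest adjusted p = 0.414 among the 34, for Cx3cr1). DESeq2 also passed 0 of the 34, beside 0.417% of its genes, and limma voom with quality weights passed 0. At an unadjusted p under 0.05 edgeR gave 4 of them higher (Cx3cr1, Mpeg1, Spi1 and Cybb), beside 5.05% of all genes, and 0 lower, beside 4.26%. In either direction DESeq2 gave 5 at that level, beside 9.04% of all genes, and limma voom 7, beside 12.2%. Every Bmal1KO value lay above every Bmal1WT value for 3 of the 34 (8.82%), beside 7.83% of all genes, and 0 lay wholly below, beside 7.85%. By this count the macrophage genes stood near the background. Differences in the number of macrophages (fewer or more cells) and in RNA per macrophage cannot be told apart in bulk tissue.

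**Figure D2:**
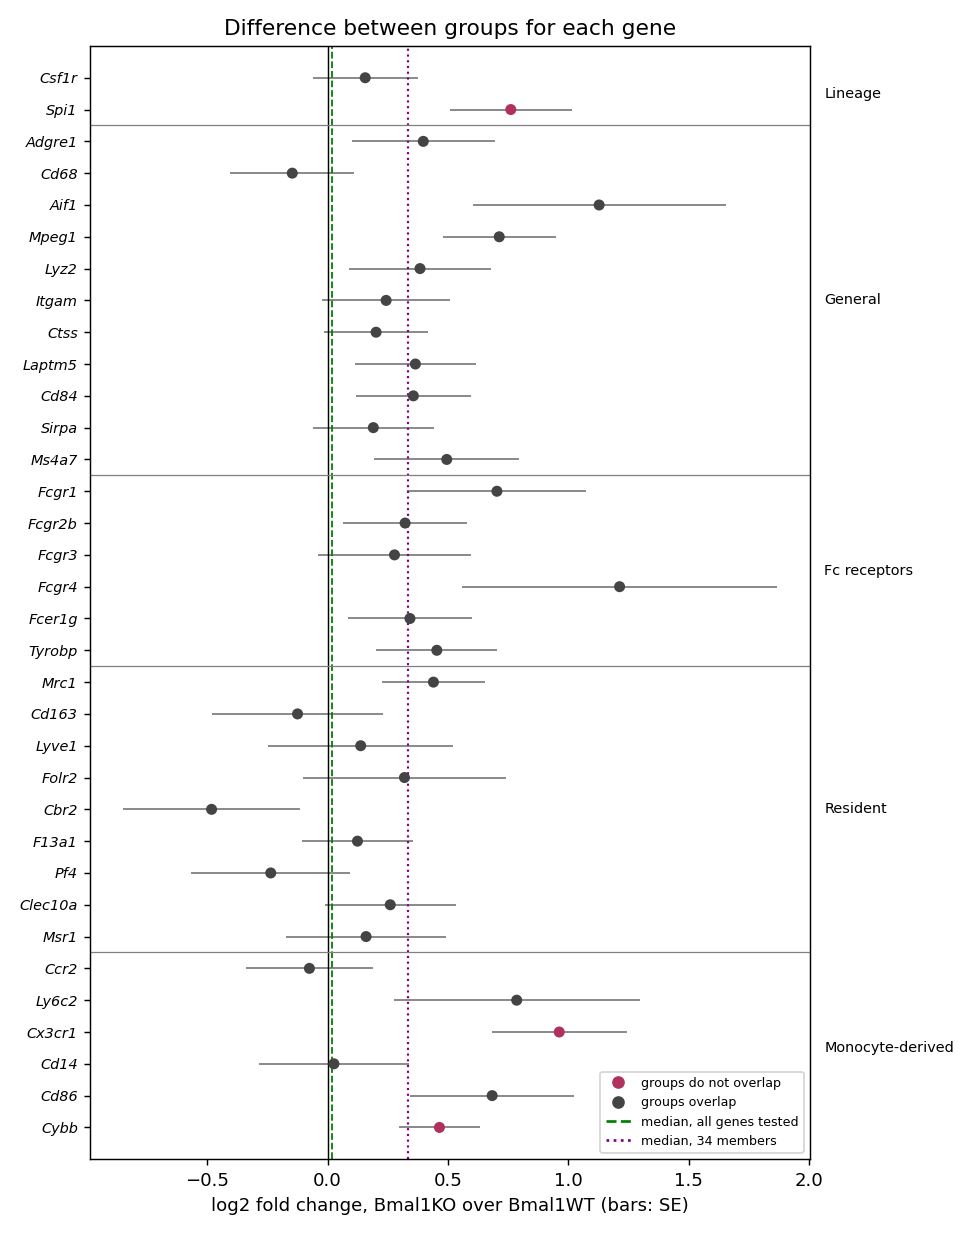
The log2 FC of Bmal1KO over Bmal1WT for each of the 34 genes, with bars of 1 SE; red points mark the 3 genes whose groups do not overlap. The dashed line is the median of all 13859 genes tested (0.018) and the dotted line that of the 34 (0.33); 29 points lie right of 0.

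The libraries within a group differed as much as the groups. Averaged over the 34 genes, log2 CPM relative to the Bmal1WT mean was 0.22, 0.12 and -0.34 in Bmal1WT and -0.20, 0.65 and 0.52 in Bmal1KO. Bmal1KO replicates 2 and 3 thus lay above the 3 Bmal1WT libraries, while Bmal1KO replicate 1 lay between Bmal1WT replicates 2 and 3. Either Bmal1KO replicate 2 or replicate 3 held the highest level of 15 genes each, and the lowest was in Bmal1WT replicate 3 for 17 genes and in Bmal1KO replicate 1 for 13. The same libraries differed in fat cell genes, whose mean over 12 adipocyte markers was -0.26, 0.0712 and 0.19 in Bmal1WT and 0.17, -0.87 and -1.14 in Bmal1KO. Markers of other cells differed between libraries as well. Over 10 blood endothelial markers the mean was -0.14, -0.42 and 0.55 in Bmal1WT and -0.14, -1.0 and -0.94 in Bmal1KO, and over 14 T cell markers it was -0.87, 0.63 and 0.25 and 1.15, 2.14 and 1.74. The pan-leukocyte gene Ptprc (CD45), named after its values were seen, was at 77.8, 100.5 and 94.2 CPM in Bmal1WT and 112, 168 and 162 CPM in Bmal1KO (log2 FC 0.70, SE 0.19, adjusted p = 0.414 by edgeR), with no overlap. The part of this cell make-up in the macrophage differences was not tested.

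**Figure D3:**
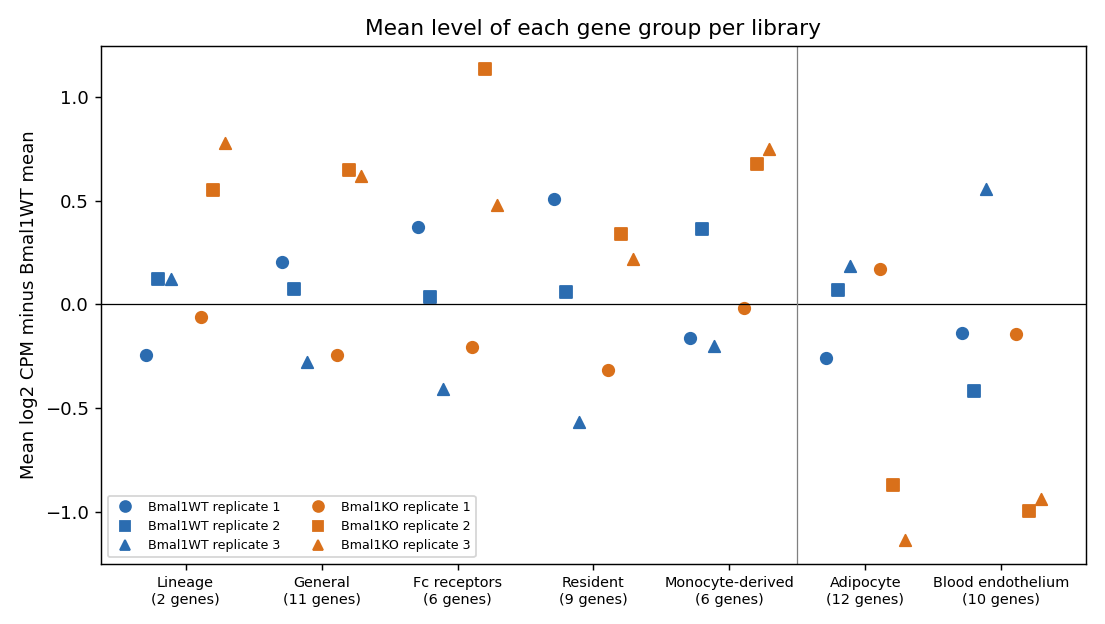
Mean log2 CPM of each macrophage gene group, and of adipocyte and blood endothelial markers, relative to the Bmal1WT mean, 1 symbol per library. Bmal1KO replicates 2 and 3 (orange square and triangle) lie above the Bmal1WT symbols in every macrophage group but the resident one and below them for adipocyte markers, while Bmal1KO replicate 1 (orange circle) lies at or below 0 in every macrophage group and at 0.17 for adipocyte markers.

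Single libraries decided how many genes separated the groups. Without Bmal1KO replicate 1, 20 of the 34 had no overlap with Bmal1KO above, beside 17.0% of all genes, and 18 reached an unadjusted p under 0.05, beside 16.2%. There the median log2 FC was 0.58 with 31 of 34 higher, and 1 gene, Tyrobp, passed the adjusted test (log2 FC 0.71, adjusted p = 0.0440 by edgeR), beside 1.09% of all genes. Without Bmal1WT replicate 1 the groups of 7 genes did not overlap (beside 12.0%), and without Bmal1WT replicate 2 those of 5 (beside 12.4%). Without Bmal1KO replicate 2 only 2 genes reached an unadjusted p under 0.05 (beside 7.36%) and the median was 0.18.

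Of the lineage genes, Spi1 (ENSMUSG00000002111.8, mm10 chromosome 2, 91082390 to 91115756), whose product PU.1 drives the myeloid programme, was at 21.1, 31.2 and 29.5 CPM in Bmal1WT and 31.3, 52.5 and 54.6 CPM in Bmal1KO. The groups did not overlap, but only by the gap between 31.2 and 31.3 CPM, and scaled by DESeq2 size factors they did. Its means were 27.3 ± 5.39 CPM in Bmal1WT and 46.1 ± 12.9 CPM in Bmal1KO (SD, n = 3), with log2 FC 0.76, SE 0.25, adjusted p = 0.431 by edgeR. Csf1r, the receptor for the growth factors CSF1 and IL-34, was at 498, 562 and 597 CPM in Bmal1WT and 437, 607 and 803 CPM in Bmal1KO (log2 FC 0.16, SE 0.22, adjusted p = 0.845). Its Bmal1KO values lay both below and above all 3 Bmal1WT values. Its exons share 873 bases with Hmgxb3 on the other strand, and this kind of library does not mark the strand.

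Among the 11 general myeloid markers, 10 had a higher mean in Bmal1KO, with a median log2 FC of 0.36. None had groups without overlap, beside 7.83% of all genes with Bmal1KO above and 7.85% with Bmal1KO below. Adgre1 was at 601.5, 568 and 466 CPM in Bmal1WT and 369, 813 and 972 CPM in Bmal1KO (log2 FC 0.40, SE 0.30, adjusted p = 0.695 by edgeR). Bmal1KO replicate 1 was the lowest of the 6 libraries and Bmal1KO replicates 2 and 3 the highest. Cd68 was at 1374, 1097 and 1030.4 CPM in Bmal1WT and 667, 1074.5 and 1422 CPM in Bmal1KO (log2 FC -0.15, SE 0.26, adjusted p = 0.881), the only general marker with a lower mean. Set against the mean of the 34 genes in the same library, Cd68 lay between -0.20 and 0.17 log2 units in Bmal1WT and between -0.76 and -0.22 in Bmal1KO. It was the only one of the 34 whose groups did not overlap on this relative scale, which was looked at without a test and named after its values were seen. The share of all genes on that scale was not computed. In CPM, 7.85% of all genes lay wholly below and 7.83% wholly above, so such a separation does not set Cd68 apart.

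Mpeg1, which encodes the pore-forming perforin-2 of phagocytes, was at 75.4, 106 and 61.5 CPM in Bmal1WT and 100.1, 161 and 138 CPM in Bmal1KO (log2 FC 0.71, SE 0.23, adjusted p = 0.425 by edgeR). Only Bmal1KO replicate 1 lay within the Bmal1WT range. Aif1, the calcium-binding protein IBA1, was at 58.7, 63.3 and 28.6 CPM in Bmal1WT and 54.9, 203 and 70.5 CPM in Bmal1KO. Its high mean came from Bmal1KO replicate 2: the log2 FC of 1.13 (SE 0.52, adjusted p = 0.553) was 0.31 without that library. Lyz2 ranged from 4113 to 6518 CPM in Bmal1WT and from 4702 to 10210 CPM in Bmal1KO, and reads can be shared with its close relative Lyz1 (31.9 to 93.0 CPM). The other general markers had log2 FC values from 0.19 to 0.50. These are the signal regulatory protein Sirpa, which binds CD47, the integrin chain Itgam (CD11b), Ctss, the lysosomal membrane protein Laptm5, the adhesion receptor Cd84 and Ms4a7, a membrane protein of the MS4A family. Sirpa and Cd84 were at 264.5 to 287 and 237.5 to 266 CPM in Bmal1WT and at 179 to 389 and 198 to 415 CPM in Bmal1KO, a spread far wider in the latter. Itgam shares 3450 exon bases with the overlapping model Gm49368 on the same strand, so its counts are uncertain.

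The Fc gamma receptors and their adaptors all had a higher mean in Bmal1KO (6 of 6, median log2 FC 0.40), with no adjusted p under 0.585 by edgeR. The groups overlapped for each, beside 7.83% of all genes wholly above and 7.85% wholly below. Fcgr1, the high-affinity receptor CD64, was at 69.1, 56.2 and 32.2 CPM in Bmal1WT and 46.6, 133 and 76.3 CPM in Bmal1KO (log2 FC 0.70, SE 0.37). Fcgr3, an activating receptor of low affinity, was at 522, 448 and 305 CPM in Bmal1WT and 273, 721 and 552 CPM in Bmal1KO (log2 FC 0.28, SE 0.32). Fcgr4, an activating receptor for IgG2 antibodies, was at 53.3, 32.3 and 19.8 CPM in Bmal1WT and 37.6, 162 and 43.8 CPM in Bmal1KO (log2 FC 1.21, SE 0.65). Bmal1KO replicate 2 was the highest library for each of these genes and stood alone for Fcgr4. Without it the log2 FC values were 0.22 for Fcgr1, -0.0495 for Fcgr3 and 0.21 for Fcgr4.

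Fcgr2b, the inhibitory receptor of the family, which B cells and endothelium also express, was at 138, 88.8 and 85.1 CPM in Bmal1WT and 93.5, 177 and 119.7 CPM in Bmal1KO (log2 FC 0.32, SE 0.26). Its groups overlapped, with the highest level again in Bmal1KO replicate 2. Summed B cell markers were at 30.6 to 58.8 CPM in Bmal1WT and 37.3 to 341.5 CPM in Bmal1KO, highest in Bmal1KO replicate 3, and their part in Fcgr2b was not tested. The shared adaptor of the activating receptors, Fcer1g, was at 758, 715 and 550.4 CPM in Bmal1WT and 527, 1108 and 931 CPM in Bmal1KO (log2 FC 0.34, SE 0.26). Mast cells express Fcer1g too, and summed mast cell markers were at 74.0 to 157 CPM in Bmal1WT and 262 to 409 CPM in Bmal1KO, with no overlap, so their part in Fcer1g was not tested. Tyrobp (DAP12), the adaptor of TREM2 and other receptors, was at 955, 914 and 811 CPM in Bmal1WT and 738.5, 1490.5 and 1442 CPM in Bmal1KO (log2 FC 0.45, SE 0.25). Bmal1KO replicates 2 and 3 lay above and Bmal1KO replicate 1 below all Bmal1WT values for both adaptors.

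Per length, Fcgr3 made up most of the receptor RNA. Its share of the summed TPM of the 4 Fc gamma receptors was 76.4, 80.4 and 80.4% in Bmal1WT and 71.0, 66.3 and 78.9% in Bmal1KO. Fcgr4 made up 10.8, 8.02 and 7.21% in Bmal1WT and 13.5, 20.6 and 8.65% in Bmal1KO, largest in Bmal1KO replicate 2. The ratio of the 3 activating receptors to Fcgr2b in TPM was 15.5, 19.9 and 13.9 in Bmal1WT and 12.7, 19.5 and 18.5 in Bmal1KO. These ranges overlapped, so the balance of activating to inhibitory receptor RNA did not separate the groups. Reads of Fcgr2b and Fcgr3, whose outer domains are close in sequence, can be split between them.

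**Figure D4:**
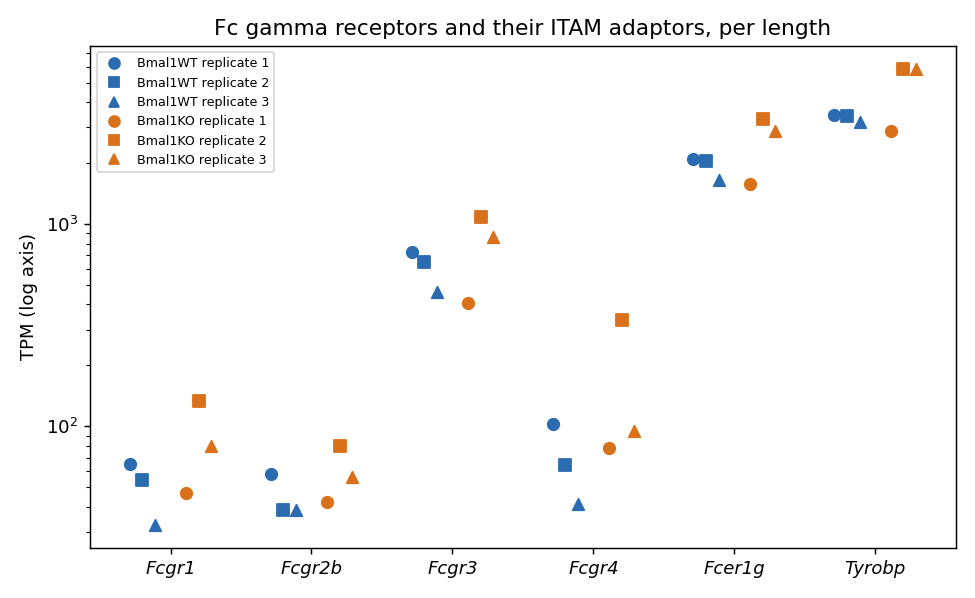
TPM of the 4 Fc gamma receptors and the adaptors Fcer1g and Tyrobp in each library, on a log axis; symbols as in the plot of CPM by gene. Fcgr3 lies above the other receptors in all 6 libraries, and Bmal1KO replicate 2 (orange square) stands alone for Fcgr4 at 337 TPM against 41.3 to 103 TPM in the other 5.

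Promoter sequence is shown for the genes whose groups did not overlap and for 3 of the 15 that peaked in Bmal1KO replicate 2, to set their start sites side by side. Of the 34 genes, 24 had an entry among RefSeq promoters (GRCm38.p6, the mm10 assembly) that could be used, which leaves out Spi1. GAGGAA on either strand, a form of the purine core of PU.1 sites, is called the core here. In the 250 bases before the start site it occurred in 13 of the 24 (54.2%), beside 26.6% of the 10460 tested genes with an entry. A longer form, GAGGAAGT, which contains the core, occurred in 3 of the 24 (12.5%), beside 3.17%. In the sequences that follow, capitals mark the core, which reads TTCCTC where it lies on the other strand. Each is given 5′ to 3′ on the strand of the gene, namely chr1:171018676-171018925 (plus) for Fcgr4, chr3:96293970-96294219 (minus) for Fcgr1, chr17:35176053-35176302 (minus) for Aif1, chr9:120068297-120068546 (minus) for Cx3cr1 and chrX:9469325-9469574 (minus) for Cybb.
Fcgr4: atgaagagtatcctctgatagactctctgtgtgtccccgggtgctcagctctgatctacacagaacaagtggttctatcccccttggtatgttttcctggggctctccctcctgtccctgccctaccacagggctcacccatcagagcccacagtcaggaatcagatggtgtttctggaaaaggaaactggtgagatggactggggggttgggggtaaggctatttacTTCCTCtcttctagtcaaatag
Fcgr1: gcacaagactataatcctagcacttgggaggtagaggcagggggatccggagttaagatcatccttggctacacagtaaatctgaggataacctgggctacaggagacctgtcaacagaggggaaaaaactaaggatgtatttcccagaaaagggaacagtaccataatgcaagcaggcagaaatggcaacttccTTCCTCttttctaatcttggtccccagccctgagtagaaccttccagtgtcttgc
Aif1: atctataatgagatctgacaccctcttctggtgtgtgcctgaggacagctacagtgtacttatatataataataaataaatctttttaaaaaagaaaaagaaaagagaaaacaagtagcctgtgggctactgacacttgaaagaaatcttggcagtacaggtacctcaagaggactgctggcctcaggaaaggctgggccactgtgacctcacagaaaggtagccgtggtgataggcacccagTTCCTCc
Cx3cr1: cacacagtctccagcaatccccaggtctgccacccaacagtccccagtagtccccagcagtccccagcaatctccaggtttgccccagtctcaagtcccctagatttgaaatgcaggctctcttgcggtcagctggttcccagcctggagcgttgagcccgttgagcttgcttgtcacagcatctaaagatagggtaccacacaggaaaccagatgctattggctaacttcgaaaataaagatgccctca
Cybb: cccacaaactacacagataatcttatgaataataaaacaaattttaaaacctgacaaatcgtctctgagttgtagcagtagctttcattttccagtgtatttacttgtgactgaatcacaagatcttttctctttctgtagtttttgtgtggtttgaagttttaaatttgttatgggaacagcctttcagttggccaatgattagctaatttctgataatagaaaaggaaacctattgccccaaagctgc

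The core began 22 bases before the start site in Fcgr4, 55 in Fcgr1 and 7 in Aif1, each time on the other strand. These letters were not found in the windows of Cx3cr1 and Cybb. In another annotation, GENCODE M21, these genes extend upstream of the windows, to positions 120069879 and 9487771. Sequence before those ends was not searched. Other genes that peaked in Bmal1KO replicate 2 and had an entry went both ways. Fcgr3, Mrc1, Ctss and Laptm5 held the core, and Fcgr2b, Fcer1g, Mpeg1, Cd163 and Ccr2 did not. A match is a description of the sequence only, since binding was not measured. Forms of PU.1 sites without GAGGAA were not searched for, so a window without these letters may still hold a site.

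The resident and scavenging genes had the smallest median difference of the 5 groups of roles, with 6 of 9 higher and a median log2 FC of 0.14. Values overlapped for every gene, beside 7.83% of all genes wholly above and 7.85% wholly below. Mrc1, the mannose receptor CD206, was at 153, 125 and 97.6 CPM in Bmal1WT and 129, 195 and 186 CPM in Bmal1KO (log2 FC 0.44, SE 0.21, adjusted p = 0.553 by edgeR). It had the smallest p of the group, and Bmal1KO replicate 1 alone lay within the Bmal1WT range. Lyve1, the hyaluronan receptor of vessel-side macrophages and lymphatic endothelium, was at 78.6, 49.2 and 20.4 CPM in Bmal1WT and 52.5, 64.3 and 46.2 CPM in Bmal1KO (log2 FC 0.14, SE 0.38). All 3 Bmal1KO values lay inside the Bmal1WT range. The 6 lymphatic endothelial markers summed to 212, 138 and 94.2 CPM in Bmal1WT and 129, 147 and 198 CPM in Bmal1KO, nearly all from Pdpn, which stromal cells also express. Among them Ccl21a had 0 counts in all 6 libraries and Prox1 at most 0.601 CPM. In Bmal1WT the summed level and Lyve1 were both highest in replicate 1 and lowest in replicate 3. In Bmal1KO the summed level was highest in replicate 3, where Lyve1 was lowest. The part of lymphatic cells in Lyve1 was not tested.

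Cd163 was at 21.7, 21.7 and 10.4 CPM in Bmal1WT and 11.0, 22.5 and 15.6 CPM in Bmal1KO (log2 FC -0.12, SE 0.35). Folr2, the folate receptor beta, was at 72.8, 60.2 and 36.4 CPM in Bmal1WT and 30.2, 69.0 and 112 CPM in Bmal1KO (log2 FC 0.32, SE 0.42). Its exons share 975 bases with the antisense model Gm10602. Cbr2, a carbonyl reductase, was at 224, 113 and 63.9 CPM in Bmal1WT and 103, 97.4 and 87.0 CPM in Bmal1KO (log2 FC -0.48, SE 0.37). Bmal1WT replicate 1 alone was high for Cbr2, and without it the log2 FC was 0.12.

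F13a1, the A subunit of coagulation factor XIII, was at 140.4, 98.5 and 83.3 CPM in Bmal1WT and 144, 117 and 90.7 CPM in Bmal1KO (log2 FC 0.12, SE 0.23). Pf4, the chemokine CXCL4 of platelets and some macrophages, was at 360.1, 249 and 139.7 CPM in Bmal1WT and 140.0, 218 and 278 CPM in Bmal1KO (log2 FC -0.24, SE 0.33). Both genes are also products of platelets, whose 6 markers summed to 3.34 to 4.45 CPM in Bmal1WT and 6.95 to 12.3 CPM in Bmal1KO, with no overlap. Of these markers, 1 to 3 were at 0 counts in each library, with Gp1bb at 0 counts throughout. Only 2 of the 6 had enough counts to enter the test, with 0 at an unadjusted p under 0.05 by edgeR. The part of platelets in F13a1 and Pf4 was not tested. The lectin Clec10a (CD301) was at 109.6, 96.2 and 88.9 CPM in Bmal1WT and 70.4, 172 and 109.9 CPM in Bmal1KO (log2 FC 0.26, SE 0.27). For the scavenger receptor Msr1, Bmal1WT had 60.1, 40.3 and 34.2 CPM and Bmal1KO 25.1, 60.6 and 64.4 CPM (log2 FC 0.16, SE 0.33). In each of these genes Bmal1WT replicate 3 or Bmal1KO replicate 1 was the lowest library.

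Of the 6 genes of monocytes, recent arrivals and activation, 2 had no overlap with Bmal1KO above, beside 7.83% of all genes. A higher mean in Bmal1KO was seen in 5 of the 6 (median log2 FC 0.57), beside 52% of all genes. Cx3cr1 (ENSMUSG00000052336.7, mm10 chromosome 9, 119901616 to 120069879), the receptor for the tethered chemokine fractalkine, was at 9.92, 9.14 and 8.39 CPM in Bmal1WT and 14.7, 16.3 and 22.5 CPM in Bmal1KO. All 3 Bmal1KO libraries, replicate 1 included, were above the narrow Bmal1WT range. The means were 9.15 ± 0.766 CPM in Bmal1WT and 17.8 ± 4.08 CPM in Bmal1KO (SD, n = 3), with log2 FC 0.96, SE 0.28, adjusted p = 0.414 by edgeR. With any 1 library left out its log2 FC ran from 0.76 to 1.08. Its counts were low, 78 to 181 per library, and its exons share 78 bases with the antisense model Gm33858.

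Cybb (ENSMUSG00000015340.10, mm10 chromosome X, 9435252 to 9487771), which encodes the catalytic subunit of the phagocyte NADPH oxidase, was at 176, 231.5 and 198 CPM in Bmal1WT and 247, 270.4 and 319 CPM in Bmal1KO. The groups did not overlap, and Bmal1WT replicate 2 came closest to Bmal1KO replicate 1. The means were 202 ± 27.8 CPM in Bmal1WT and 279 ± 36.6 CPM in Bmal1KO (SD, n = 3), with log2 FC 0.46, SE 0.17, adjusted p = 0.463 by edgeR. Cd86 was at 14.4, 15.1 and 12.2 CPM in Bmal1WT and 11.1, 28.6 and 26.9 CPM in Bmal1KO (log2 FC 0.68, SE 0.34). Bmal1KO replicates 2 and 3 were the highest for Cd86 and Bmal1KO replicate 1 the lowest. Dendritic cells also express Cx3cr1 and Cd86, and their 10 markers summed to 54.6 to 69.1 CPM in Bmal1WT and 64.2 to 103 CPM in Bmal1KO, ranges that overlapped. As a mean of log2 CPM over the 8 markers tested they did not overlap, at 0.14, -0.0186 and -0.12 in Bmal1WT and 0.37, 1.08 and 0.69 in Bmal1KO. Of the 8, 7 were higher, beside 52% of all genes, and 2 had no overlap with Bmal1KO above, beside 7.83%. The adjusted test of edgeR passed 0 of the 8, and that of DESeq2 passed 1 (Clec9a), beside 0.417% of its genes. The part of dendritic cells in Cx3cr1 and Cd86 was not tested.

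Ccr2, the receptor that brings monocytes into tissue, was at 27.8, 47.9 and 38.7 CPM in Bmal1WT and 29.2, 48.9 and 30.4 CPM in Bmal1KO (log2 FC -0.0752, SE 0.27, adjusted p = 0.947 by edgeR). The ranges of the groups nearly coincided. Ly6c2, a surface antigen of classical monocytes, was at 5.36, 20.7 and 4.95 CPM in Bmal1WT and 12.5, 18.8 and 22.1 CPM in Bmal1KO (log2 FC 0.79, SE 0.51, adjusted p = 0.651). Bmal1WT replicate 2 lay within the Bmal1KO range. The near-identical Ly6c1, a gene of endothelium as well, was at 125 to 194 CPM, so reads can be shared and the Ly6c2 values are uncertain. Cd14, the coreceptor for bacterial lipopolysaccharide, was at 104, 114 and 84.9 CPM in Bmal1WT and 49.9, 116 and 143 CPM in Bmal1KO (log2 FC 0.0266, SE 0.31).

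The mean of the 9 resident genes minus that of the 6 monocyte-derived genes was 0.67, -0.31 and -0.36 log2 units in Bmal1WT and -0.30, -0.34 and -0.53 in Bmal1KO, each relative to the Bmal1WT mean. Bmal1WT replicate 1 alone stood apart, and the other Bmal1WT libraries lay among the Bmal1KO ones. The resident mean taken alone was 0.51, 0.0595 and -0.57 in Bmal1WT and -0.31, 0.34 and 0.22 in Bmal1KO, and the monocyte-derived mean -0.16, 0.36 and -0.20 and -0.017, 0.68 and 0.75. The group difference of the resident mean was 0.081. It was 0.33 without Bmal1WT replicate 1, 0.11 without Bmal1WT replicate 2 and -0.20 without Bmal1WT replicate 3. Without Bmal1KO replicates 1, 2 and 3 in turn it was 0.28, -0.0486 and 0.0127. That of the monocyte-derived mean was 0.47 and ran from 0.33 to 0.71 with 1 library left out. Neutrophils share several of these genes (Itgam, Cybb), and their 10 markers summed to 41.5 to 84.1 CPM in Bmal1WT and 38.04 to 64.4 CPM in Bmal1KO, with 1 to 5 of the 10 at 0 counts in each library.

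Other genes of macrophage biology, in lists set beside the 34, gave 0 genes past edgeR's adjusted test. That of DESeq2 passed 1, C1qc, beside 0.417% of its genes. Of the 13 growth factors and recruiting chemokines, 7 were higher and 6 lower, with a median log2 FC of 0.043. Ccl3 and Ccl4, inflammatory chemokines, were low genes with higher values in all Bmal1KO libraries (Ccl3 3.65, 6.21 and 3.98 CPM in Bmal1WT and 10.1, 12.3 and 18.5 CPM in Bmal1KO, log2 FC 1.56, SE 0.37, adjusted p = 0.392 by edgeR; Ccl4 3.19, 5.98 and 5.06 and 7.97, 9.97 and 13.03 CPM, log2 FC 1.12, SE 0.38). The chemokines Ccl2, Ccl7, Ccl8 and Ccl12 differed in the direction of their means. Ccl7 was at 97.3, 195 and 126.5 CPM in Bmal1WT and 92.0, 72.8 and 75.1 CPM in Bmal1KO (log2 FC -0.80, SE 0.24, adjusted p = 0.414), with no overlap, and Ccl2 at 163, 346 and 258 and 173.5, 132 and 165 CPM (log2 FC -0.71, SE 0.25). Ccl8 and Ccl12 had higher means with overlapping groups, with log2 FC values of 0.77 (SE 0.75) and 0.55 (SE 0.59). Ccl8 was at 217, 277 and 77.8 CPM in Bmal1WT and 260, 602 and 111 CPM in Bmal1KO. Ccl12 was at 2.62, 8.32 and 3.66 CPM in Bmal1WT and 3.91, 13.2 and 4.09 CPM in Bmal1KO. For both, Bmal1KO replicate 2 was the highest library, and the other Bmal1KO libraries lay within the Bmal1WT range.

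Of the 5 partners of Cybb in the NADPH oxidase all had a higher mean. Ncf1, the p47phox subunit, was at 72.1, 97.6 and 64.5 CPM in Bmal1WT and 100.3, 108 and 169 CPM in Bmal1KO (log2 FC 0.69, SE 0.23, adjusted p = 0.434 by edgeR), with no overlap. The GTPase Rac2 had a log2 FC of 0.57 (SE 0.23), while Ncf4 and Cyba stood at 0.0341 and 0.17. In the list of Fc receptor and ITAM signalling, 13 of 15 were higher (median 0.33). Clec7a, the beta-glucan receptor dectin-1, was at 85.6, 107 and 80.7 CPM in Bmal1WT and 105, 197 and 142 CPM in Bmal1KO (log2 FC 0.70, SE 0.23, adjusted p = 0.423). The signalling protein Lcp2 was at 40.6, 55.2 and 44.8 CPM in Bmal1WT and 57.4, 93.2 and 63.8 CPM in Bmal1KO, with no overlap (log2 FC 0.61, SE 0.22). Vav1 and Inpp5d had log2 FC values of 0.67 and 0.55. T cells express all 3, and summed T cell markers were at 40.5 to 88.9 CPM in Bmal1WT and 121 to 252 CPM in Bmal1KO, with no overlap. Their part was not tested.

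Among 12 macrophage transcription factors 8 were higher and 4 lower (median 0.097). Id3, an inhibitor of helix-loop-helix factors, was at 339, 275 and 325 CPM in Bmal1WT and 245, 198 and 173 CPM in Bmal1KO (log2 FC -0.61, SE 0.18, adjusted p = 0.414 by edgeR), and Nr1h3, the oxysterol receptor LXR alpha, at 214, 191 and 206 and 156.5, 159 and 145 CPM (log2 FC -0.41, SE 0.14). Neither overlapped between groups, with Bmal1KO below, and other cells of fat express both. Runx1, a factor of blood cell development, stood at 0.86 (SE 0.33) in log2 FC.

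Of 21 other macrophage genes 16 were higher (median 0.43). Groups did not overlap for 3 with Bmal1KO above, beside 7.83% of all genes, and for 1 with Bmal1KO below, beside 7.85%. The complement chain C1qc was at 103, 128 and 83.7 CPM in Bmal1WT and 129, 289 and 212 CPM in Bmal1KO, with no overlap (log2 FC 1.01, SE 0.27, adjusted p = 0.414 by edgeR, 0.0485 by DESeq2, 0.231 by limma voom). The eosinophil-attracting chemokine Ccl24 was at 24.0, 27.8 and 13.1 CPM in Bmal1WT and 11.3, 6.34 and 10.9 CPM in Bmal1KO (log2 FC -1.19, SE 0.35, adjusted p = 0.414 by edgeR), with no overlap. Mgl2, a lectin of alternatively activated macrophages and dendritic cells next to Clec10a, had a log2 FC of -0.71 (SE 0.28). The cytokine Il1b had only 2, 12 and 5 counts in Bmal1WT and 28, 25 and 35 in Bmal1KO, the first under the floor of 3 counts, so its fold is uncertain. Genes of lipid-associated macrophages, which gather around dying fat cells, were higher in 9 of 13 cases, with 0 past the test and a median of 0.070. Trem2, their lipid-sensing receptor, was at 540.0, 502 and 439 CPM in Bmal1WT and 386, 711 and 766 CPM in Bmal1KO (log2 FC 0.33, SE 0.24, adjusted p = 0.687), and the acid phosphatase Acp5 at 461, 412 and 519.8 and 421, 298 and 297 CPM (log2 FC -0.46, SE 0.19). For the lysosomal proteases Ctsl and Ctsd the log2 FC values were -0.28 (SE 0.28) and 0.16 (SE 0.26).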

How the data were processed

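RNA of whole visceral fat from 6 samples (3 Bmal1WT, 3 Bmal1KO) was, per the labels' protocols, primed with anchored oligo(dT) from 2 ng, amplified, cut with Nextera XT and read in pairs of 38 bp. Amplified copies carry no molecular identifiers, so counts cover reads and not molecules. The deposited values are raw counts for each gene symbol, which the authors obtained with STAR 2.7.3a and featureCounts on mm10, per the submitters' processing notes. How the authors set annotation, strand and multi-mapped reads was not given in the sources used here.

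Testing used edgeR 4.0.16 in R 4.3.3, with filterByExpr (13859 genes kept), TMM scaling, quasi-likelihood F-test with robust dispersion, Bmal1KO against Bmal1WT without covariates, Benjamini-Hochberg adjustment over all genes tested, threshold 0.05. CPM, the counts scaled to library size, use TMM-scaled sizes. The SE is the absolute log2 coefficient over the square root of F. List means use log2 CPM with a prior count of 2. TPM use merged exon lengths of GENCODE M21 (mm10), in which 52830 symbols matched 1 gene. Such levels carry the limits of that annotation. The script was tested on simulated data. A floor of 3 counts stands for a gene at 0.

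Per-library values are given for those of the 34 members without overlap between groups, for the Fc receptor, resident and monocyte-derived lists, and for Csf1r, Spi1, Adgre1 and Cd68. Up to 4 genes of smallest p are given for each list set beside them. Some genes of these lists are not reported here. Other genes with values were chosen after these were seen. The 34 members and all lists were chosen with earlier results of these data known. Alternatives were other scalings and filters, DESeq2 1.42.0, limma 3.58.1 (voom with quality weights), a threshold of 0.10, a replicate block and libraries left out. Values on the scale of the members' own mean were chosen after seeing the data.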

Additional observations from a re-analysis of the deposited data

How the results depend on the processing

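The number of genes past the adjusted test over all genes was 0 with TMM, DESeq2 size factors, library size alone, a filter of 1 CPM, a threshold of 0.10 and limma voom. It was 186 with no filter, 60 with DESeq2, 61 without both first-numbered libraries and 0 to 156 with any 1 library left out. Members past it numbered 0 to 1 with 1 library left out and 0 in every other setting run. Members at an unadjusted p under 0.05 numbered 4 (beside 9.31% of all genes in either direction), but 7 with library size alone (beside 9.96%), 13 with no filter (beside 7.25%), 7 with limma voom (beside 12.2%) and 22 without both first-numbered libraries (beside 14.9%). With 1 library left out they numbered 2 to 18 (beside 6.97% to 16.2%). Members with no overlap and Bmal1KO above numbered 3, but 26 without both first-numbered libraries (beside 23.2%) and 3 to 20 with 1 left out (beside 12.0% to 17.0%). Library size alone gave 1590 of all genes wholly above and 674 wholly below, against 1085 and 1088 with TMM, and 3 and 0 of the members under both. The replicate number did not pair the samples (same-numbered libraries correlated at -0.07, 0.09 and -0.03 in their deviations). The replicate block gave 28 of 34 members higher, a median of 0.30 and 0 calls, with Cd14 at -0.0863.

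Of the 34 members 19 kept their direction in all 15 alternatives and 15 did not, all of them uncalled. The threshold of 0.10 is among these alternatives, but it uses the folds of the main fit and could not change a direction. Without both first-numbered libraries the log2 fold change was 0.24 for Cd68, 0.26 for Cd163, 0.0621 for Cbr2 and 0.36 for Pf4, and with library size alone that of Ccr2 was 0.0133. Leaving out each library in turn gave ranges of -0.0871 to 0.35 for Csf1r, -0.43 to 0.0953 for Cd68, -0.0316 to 0.46 for Itgam, -0.0115 to 0.46 for Sirpa and -0.0495 to 0.58 for Fcgr3. For the resident genes it ran from -0.43 to 0.0906 for Cd163, -0.23 to 0.65 for Lyve1, -0.19 to 0.68 for Folr2, -0.81 to 0.12 for Cbr2, -0.0524 to 0.37 for F13a1, -0.52 to 0.13 for Pf4, -0.13 to 0.52 for Clec10a and -0.0661 to 0.48 for Msr1. For Ccr2 it ran from -0.36 to 0.12 and for Cd14 from -0.29 to 0.35. Beyond the libraries left out, the cause was not tested. Where a fit left out a library, 2 remained in 1 or both groups.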

Other observations

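Markers of blood monocytes beyond the 34 genes gave mixed values, with 5 of 8 higher and 3 lower and 0 past edgeR's adjusted test. That of DESeq2 passed 1, Hp, beside 0.417% of its genes. Plac8, a gene of classical monocytes and other leukocytes, was at 16.2, 21.9 and 8.82 CPM in Bmal1WT and 21.5, 53.8 and 36.4 CPM in Bmal1KO (log2 FC 1.25, SE 0.38, adjusted p = 0.414), while the chitinase-like gene Chil3 was at 7.64, 4.45 and 8.93 and 0.601, 1.36 and 4.59 CPM (log2 FC -1.66, SE 0.66). Haptoglobin (Hp), which fat cells also express, was at 14457, 8518.5 and 12942 CPM in Bmal1WT and 8011, 6644.5 and 5065 CPM in Bmal1KO, with no overlap between groups (log2 FC -0.86, SE 0.26, adjusted p = 0.414 by edgeR, 0.0216 by DESeq2).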
